A study of Pistacia chinensis with 8 samples.

Results

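The miR169 family was examined in the inflorescence buds of Pistacia chinensis (Chinese pistache), a mostly dioecious tree with some monoecious plants. Its members were the rows of the small RNA count table whose name, after the species prefix, begins with miR169 and no further digit, which gave 10 of 471 rows. The names carry 5 species prefixes (ath for Arabidopsis thaliana, bdi for Brachypodium distachyon, gma for Glycine max, osa for Oryza sativa and ptc for Populus trichocarpa), so each row is a pistache read set named after a known miRNA of another plant. Rows were chosen by name, but the family was taken up with its low levels and its difference between stages already known. The stage values are therefore given as a description and not as a test.

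miR169 is a deeply conserved plant miRNA that guides the cleavage of mRNAs for NF-YA proteins, the subunit that gives the trimeric transcription factor NF-Y its contact with CCAAT boxes in promoters. In petunia and snapdragon the miR169 genes BLIND and FISTULATA keep C-class floral identity genes, which specify stamens and carpels, inside the inner whorls of the flower. In Arabidopsis thaliana the family also answers to nitrogen supply and drought. These roles come from other species.

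The study compared sex types during sex differentiation. Small RNA libraries came from stage C and stage B of floral development, as the labels name them, and from 4 sex types at each stage, with 1 library per combination and so 8 in all. Male buds were of strain X1, female buds of strain C1, and monoecious bisexual and monoecious female buds both of strain T2. No treatment or transgene is named in the labels, and they do not say whether a library came from 1 tree or a pool. Male and female therefore differ in strain as well as in sex, as do monoecious and dioecious buds, and sex type and strain cannot be told apart there. Since buds were sequenced whole, fewer cells that hold a miRNA and less miRNA per cell cannot be told apart either. Libraries held 419169 to 512244 reads on miRNA rows at stage C and 821235 to 1159015 at stage B in male, female and monoecious female buds, but 160129 in bisexual buds at stage B. That bisexual library also stood apart from the rest, with rank correlations across all rows of 0.78 to 0.84 with the other stage B libraries, against 0.9 to 0.94 for the other pairs of the same stage. The fitted differences of the family are given with and without it.

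Reads of the family fell mostly on 3 rows that followed each other closely. The row with most reads, ath-miR169b-5p, had 17 reads in male, 16 in female, 21 in bisexual and 28 in monoecious female buds at stage C, against 2, 1, 1 and 4 reads in the same sex types at stage B. Every stage C library held more reads of this row than every stage B library. Nothing is read from that, as the share of all rows without overlap was not counted. In 3 of 4 sex types the stage B library had the larger total over miRNA rows. gma-miR169v had the same counts in 7 of 8 libraries and 1 read fewer in bisexual buds at stage C. ptc-miR169s had 13, 16, 17 and 24 reads in male, female, bisexual and monoecious female buds at stage C and 1, 1, 0 and 4 at stage B. Its count was at or below that of gma-miR169v in 8 of 8 libraries, by 4 reads at most. The labels do not say how reads were shared among rows, so the 3 rows cannot be read as 3 independent measurements.

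A pair of rows held fewer reads. ath-miR169a-5p had 5 reads in male, 1 in female, 2 in bisexual and 9 in monoecious female buds at stage C, and 1 read in monoecious female buds and 0 elsewhere at stage B. gma-miR169u had 4, 1, 4 and 6 reads in male, female, bisexual and monoecious female buds at stage C and 0 in every stage B library. Both rows were lowest in female buds, on 1 read each, and highest in monoecious female buds at stage C. The order was not resolved for gma-miR169u. For ath-miR169a-5p, among the pairs compared below, only monoecious female and female buds were resolved. The other 5 rows had 1 read each in 1 library. ath-miR169d and ath-miR169h had theirs in monoecious female buds at stage C, and bdi-miR169m, gma-miR169e and osa-miR169e had theirs in female buds at stage C. Rows that repeat each other's counts exactly may hold the same read, so the 10 rows made 7 distinct ones, or 5 groups when rows whose counts never differed by more than 5% or 2 reads were joined. The name gives the 5p arm in 2 rows and the 3p arm in 0. In all, 6 of 10 rows had 0 reads at stage B, and no row exceeded 4 reads there.

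**Figure D1:**
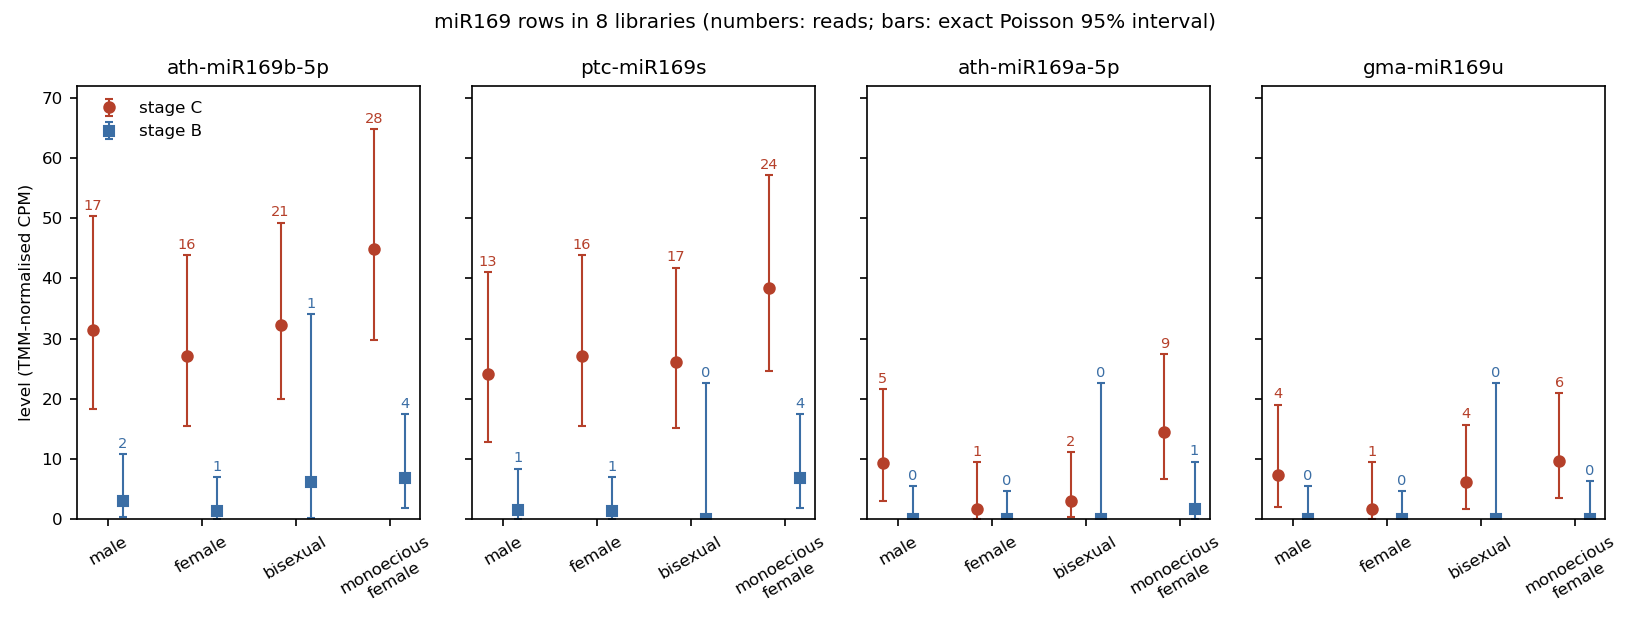
Levels in TMM-normalised CPM (y axis) of 4 miR169 rows, in stage C (circles) and stage B (squares) libraries of each sex type (x axis), with exact Poisson 95% intervals for counting error and the number of reads above each. ath-miR169b-5p lay between 27.1 and 44.9 CPM in the 4 stage C libraries and between 1.26 and 6.85 CPM in the 4 stage B libraries, and the interval of bisexual buds at stage B, from 1 read, reached 34.1 CPM.

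In TMM-normalised CPM, reads scaled to a library of 1e+06, where TMM first adjusts each library total by a trimmed mean of ratios to the others, ath-miR169b-5p averaged 33.9 ± 7.65 CPM at stage C and 4.31 ± 2.63 CPM at stage B (SD, n = 4 libraries each, 1 per sex type). ptc-miR169s averaged 28.9 ± 6.48 CPM at stage C and 2.4 ± 3.04 CPM at stage B. The SD covers sex types, not replicates. Ordered by level, ath-miR169b-5p was highest in monoecious female buds at stage C (44.9 CPM), followed by bisexual (32.2), male (31.5) and female buds (27.1) at stage C. After them came monoecious female (6.85), bisexual (6.13), male (3) and female buds (1.26) at stage B. Neighbours within stage C did not differ beyond counting error, with ratios of 1.02 to 1.39 whose exact 95% intervals all held 1. The step between stages was the exception, with female buds at stage C at 3.96 times the monoecious female level of stage B (1.28 to 16.3). A library held no more than 4 reads of the row at stage B, so the order of sex types there was not resolved.

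Summed over the 7 distinct rows, the family had 56 reads in male, 51 in female, 64 in bisexual and 96 in monoecious female buds at stage C, against 5, 3, 2 and 13 reads in the same sex types at stage B. This sum counts reads held by several rows more than once. In CPM it amounted to 104 in male, 86.3 in female, 98.2 in bisexual and 154 in monoecious female buds at stage C, against 7.5, 3.77, 12.3 and 22.3 at stage B. The stages did not overlap, and nothing is read from that, as the share of all features without overlap was not counted. miR168, with a log2 stage difference of 0.505, did not overlap either (726 to 891 CPM at stage C, 371 to 484 at stage B). The bisexual value at stage B lies under that library's floor of 3 reads, 18.4 CPM, so the order of sex types there was not resolved. Among the 67 families named in the table, miR169 took rank 25 or 26 by level in the 4 stage C libraries and rank 30 to 36 at stage B. Its sum never exceeded 0.0187% of a library's total over miRNA rows.

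Within each sex type the stage ratio of ath-miR169b-5p was above 1. The stage C level was 10.5 times the stage B level in male buds (exact conditional binomial 95% interval 2.49 to 93.6) and 21.5 times in female buds (3.34 to 903). In monoecious female buds it was 6.55 times (2.29 to 25.7). The bisexual ratio of 5.26 had an interval of 0.846 to 218, so a difference was not resolved there with this scaling, in a stage B library where 3 reads correspond to 18.4 CPM. Scaled by library totals alone, the ratios of the row were 17.4 in male, 39.2 in female and 11.2 in monoecious female buds, and the bisexual one was 6.82 with an interval of 1.1 to 282, above 1. For ptc-miR169s the ratio was 16 in male (2.41 to 681), 21.5 in female (3.34 to 903) and 5.61 in monoecious female buds (1.93 to 22.2). Bisexual buds had 0 reads of it at stage B, which makes stage C at least 1.42-fold higher against a floor of 3 reads. The wide upper limits come from the 1 to 4 reads at stage B. Intervals and floors take in counting error alone, as the labels name no molecular identifiers and reads are then not independent molecules.

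The minor rows could be compared between stages in fewer sex types. ath-miR169a-5p at stage C was 8.42 times its stage B level in monoecious female buds (1.17 to 369) and at least 2.06-fold higher in male buds. gma-miR169u was at least 1.64-fold higher in male and at least 1.87-fold higher in monoecious female buds at stage C. In female buds counts of both rows were too low for a ratio or a bound, as were those of ath-miR169a-5p in bisexual buds. gma-miR169u had 4 against 0 reads in bisexual buds, which gave no bound above 1 against the floor of 3 reads. Over the 7 distinct rows and 4 sex types, 12 ratios could be formed with TMM factors, all above 1 and 10 of them with an interval above 1, and 4 pairs gave a lower bound. With library totals alone all 12 intervals lay above 1. The other 12 pairs gave neither. A pair needed more than 3 reads in a library, and each ratio or bound met this through its stage C count. With 0 reads at stage B, a bound was kept only where it lay above 1, so these bounds could point 1 way only. The main rows also nearly repeat each other, so nothing is read from these tallies.

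**Figure D2:**
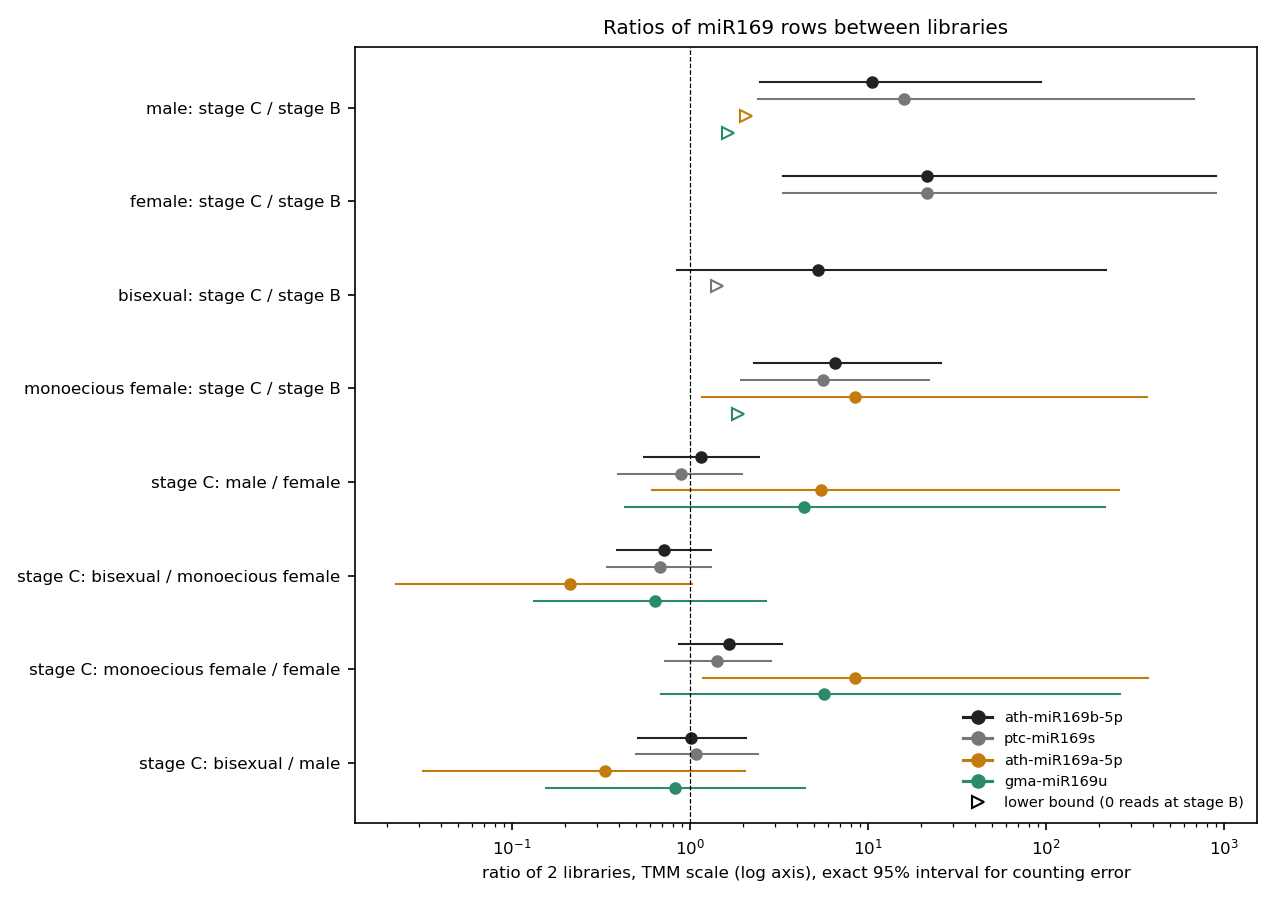
Ratios of 2 libraries (x axis, log scale, TMM-scaled) for 4 miR169 rows, with exact 95% intervals for counting error as lines and lower bounds as open triangles. The upper 4 comparisons set stage C over stage B within a sex type, and their points lie above 1. The lower 4 set sex types against each other at stage C, with wide intervals for the rows with few reads. There all 4 rows lie above 1 for monoecious female over female and below 1 for bisexual over monoecious female buds. In the others they lie on both sides of 1. Only the interval of ath-miR169a-5p for monoecious female over female buds (1.18 to 374) does not hold 1.

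A fit across the 248 rows that reached 10 reads in 2 or more libraries, additive in stage and sex type, held 3 of the 10 miR169 rows. These 3 rows passed the filter through their stage C counts alone, so their difference between stages was built into their selection. The log2 difference of stage C from stage B was 3.13 (SE 0.61) for ath-miR169b-5p, 3.12 (SE 0.61) for gma-miR169v and 3.51 (SE 0.71) for ptc-miR169s. Without the bisexual library of stage B these were 3.45 (SE 0.55), 3.45 (SE 0.55) and 3.47 (SE 0.61). In this fit 3 of 3 rows passed an adjusted p of 0.05, where 19.0% of all rows did, and nothing is read from that count. It fell to 0 of 3 without any 1 library of male, female or monoecious female buds, where 0 to 7.79% of all rows were called. It stayed at 3 without the bisexual library of stage B or of stage C, where 43.1% and 47.1% of all rows were called. With 1 library per group, the spread in the fit is the difference of stage effects between sex types and not a spread between trees.

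For the summed family the stage difference was 2.99 (SE 0.52) on the log2 scale in a table of 96 families and predicted miRNAs, of which 25.0% were called, and nothing is read from that share. The sum takes reads held by several rows as separate counts, and its SE rests on them. With near-identical rows kept once the difference was 3.19 (SE 0.57). Without the monoecious female library of stage C the difference was 3.31 (SE 0.72). Without the bisexual library of stage B it was 2.92 (SE 0.58). The size depended on the scaling. With library totals alone it was 4.17 (SE 0.615), and that scaling moved the median of all 96 features by 1.23. Relative to that median, miR169 differed by 2.96 with TMM factors and by 2.91 with library totals. The TMM factors behind the CPM levels were computed on the rows and were 1.22 to 1.32 at stage C and 0.686 to 1.02 at stage B. The fit of the summed family used factors of its own table, so it need not match the ratio of CPM means.

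Among the 38 families tested, miR408 (4.11) and miR393 (3.07) had larger stage differences than miR169 in edgeR. With DESeq2, which gave 3.27 for miR169, miR5139 (3.75), miR8155 (3.74) and miR1511 (3.40) also lay above it, beside miR408 (4.56) and miR393 (3.36); they are named after their values were seen. miR408 and miR393 belong to a list of nutrient- and stress-responsive families, of which 5 of 9 could be tested; miR393 is named after its value was seen. The nutrient list and the floral list below were chosen with earlier results of these data known, so nothing is read from their counts or medians. The nutrient list had a median log2 difference of 2.45 against 0.03 over all 96 features, of which 25.0% were called. In it 3 families were called higher at stage C and 1 was called lower (edgeR, adjusted p under 0.05). The higher ones were miR408, which targets copper proteins, miR393, which targets auxin receptors, and miR398, which targets copper/zinc superoxide dismutases, at 2.45 (SE 0.41). The lower one was miR399, known for repressing PHO2 in phosphate homeostasis, at -1.63 (SE 0.40), and with library totals alone it had -0.49 and was not called. miR395, which targets genes of sulphate assimilation, had 0.37 (SE 0.48) and was not called. Of 15 families that act on floral organs and meristems, 14 could be tested and edgeR called 0 higher. DESeq2, which called 31 of all 96 features, called miR171 higher, at 1.19. Called lower were miR159, which targets GAMYB-like genes, at -1.47 (SE 0.38), and miR166, which targets HD-ZIP III genes, at -1.23 (SE 0.38). The TCP regulator miR319 had -0.76 (SE 0.37) and miR396, a repressor of growth-regulating factors, had -1.16 (SE 0.43), and neither was called. With library totals alone miR159 and miR166 lost their calls, while miR171 (2.10) and miR390 (2.01), named after their values were seen, were called higher. The median of this list was -0.42 with TMM factors and 0.785 with library totals, against 0.0283 and 1.26 over all 96 features. That of the nutrient list was 3.61 with library totals. Without the bisexual library of stage B, where 52.1% of all 96 features were called, the list had 2 families called higher (miR171 and miR390) and 7 called lower, miR319 and miR396 among them. The nutrient list kept 3 higher and 1 lower there. In the comparisons of sex type and in the interaction edgeR and DESeq2 each called 0 families of these lists, with 0 of the nutrient list and 1 of the floral list at an unadjusted p below 0.05. Few of all 96 features were called there, so nothing is read from that. edgeR called 2 in monoecious against dioecious and 0 in the others. DESeq2 called 8 in monoecious against dioecious, 4 in bisexual against monoecious female, 2 in each of the other sex type comparisons and 0 in the interaction.

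**Figure D3:**
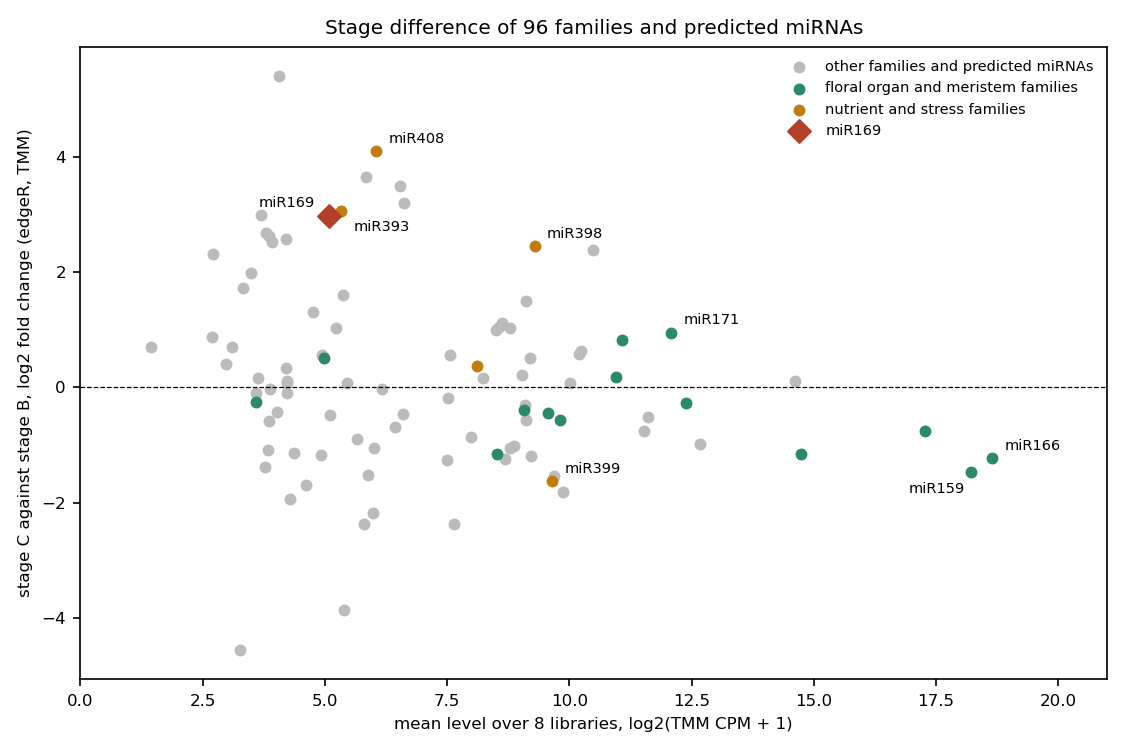
Log2 difference of stage C from stage B (y axis, edgeR with TMM factors) against mean level over 8 libraries (x axis, log2 of CPM plus 1) for 96 families and predicted miRNAs, 1 point each. miR169 (diamond, 2.99) lies near miR393 (3.07) and below miR408 (4.11) among the features of low level, while the abundant miR159 and miR166 lie below 0 on this scale.

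The levels of the family in stamen-bearing and pistillate buds were then compared, which asks whether miR169 tracks sex type. None of the comparisons of sex type passed for the family or for any of its rows. In male against female buds the family's log2 difference was 0.19 (SE 0.68, edgeR quasi-likelihood test, Benjamini-Hochberg adjusted p = 0.998). Without the female library of stage B it was -0.15 (SE 1.02). It was 0.13 (SE 0.69) without the bisexual library of stage B. At stage C, ath-miR169b-5p in male buds was 1.16 times the female level (0.552 to 2.46), and ptc-miR169s was 0.889 times (0.393 to 1.97). Both intervals hold 1. Of 3 tested rows 0 were called by edgeR, 0 had an unadjusted p below 0.05 and 0 were called by DESeq2, where edgeR called 0% of all rows. Among all 248 rows, 12 had an unadjusted p below 0.05 and DESeq2 called 0.

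Bisexual and monoecious female buds share strain T2, so strain does not differ between them. The bisexual level of the family was 98.2 CPM against 154 CPM in monoecious female buds at stage C. At stage B it was 12.3 against 22.3 CPM, from 2 against 13 reads, and the order was not resolved. The log2 difference was -0.64 (SE 0.71, edgeR adjusted p = 0.812), and it did not pass. ath-miR169b-5p in bisexual buds was 0.719 times the monoecious female level at stage C (0.388 to 1.31), from 21 against 28 reads. At stage B the ratio was 0.895 from 1 against 4 reads (0.0182 to 9.04). Both intervals hold 1. Without the bisexual library of stage B the family's difference was -0.54 (SE 0.80), and it did not pass. Neither edgeR nor DESeq2 called any of the 3 rows (0 each), 0 had an unadjusted p below 0.05, and edgeR called 0% of all rows. DESeq2 called 10 of all 248 rows, and 19 had an unadjusted p below 0.05 in edgeR.

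Stamen-bearing buds (male and bisexual) set against pistillate buds (female and monoecious female) gave a log2 difference of -0.23 for the family (SE 0.49, edgeR adjusted p = 0.884). Its sign was not stable, as it became 0.0027 without monoecious female buds of stage B, 0.12 without female buds of stage C, and 0.06 when only the row with most reads stood for each family. Without the bisexual library of stage B it was -0.21 (SE 0.52). Whether the stage difference itself depended on flower class was tested with an interaction term, which left 2 residual degrees of freedom. The stage difference of stamen-bearing buds was 0.09 log2 units above that of pistillate buds (SE 1.24, adjusted p = 1 in edgeR), and it was 0.14 (SE 1.33) without the bisexual library of stage B. The sign turned with library totals alone (-0.335) and when monoecious female buds of stage B (-0.71) or stage C (-0.66) were left out. Both comparisons had 0 of 3 rows called by edgeR and by DESeq2 and 0 with an unadjusted p below 0.05, and edgeR called 0% of all rows. For flower class DESeq2 called 3 of all 248 rows, and 12 had an unadjusted p below 0.05 in edgeR. For the interaction these counts were 0 and 2.

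At stage B the family had 12.3 CPM in bisexual buds (2 reads) and 22.3 in monoecious female buds (13 reads), against 7.5 in male (5 reads) and 3.77 in female buds (3 reads). The bisexual value lies under that library's floor of 18.4 CPM, so no order is read from it. At stage C the groups overlapped, since bisexual buds had 98.2 and monoecious female buds 154 CPM, against 104 in male and 86.3 in female buds. The log2 difference of monoecious from dioecious buds was 0.59 (SE 0.49, edgeR adjusted p = 0.562), positive under each alternative tried and not called in any, with 0.56 (SE 0.51) without the bisexual library of stage B. The number of miR169 rows called was 0 of 3 by edgeR and by DESeq2, with 0 at an unadjusted p below 0.05. Here edgeR called 0.403% of all rows and 2.08% of the 96 families and predicted miRNAs. DESeq2 called 7 of all 248 rows, and 27 had an unadjusted p below 0.05 in edgeR.

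**Figure D4:**
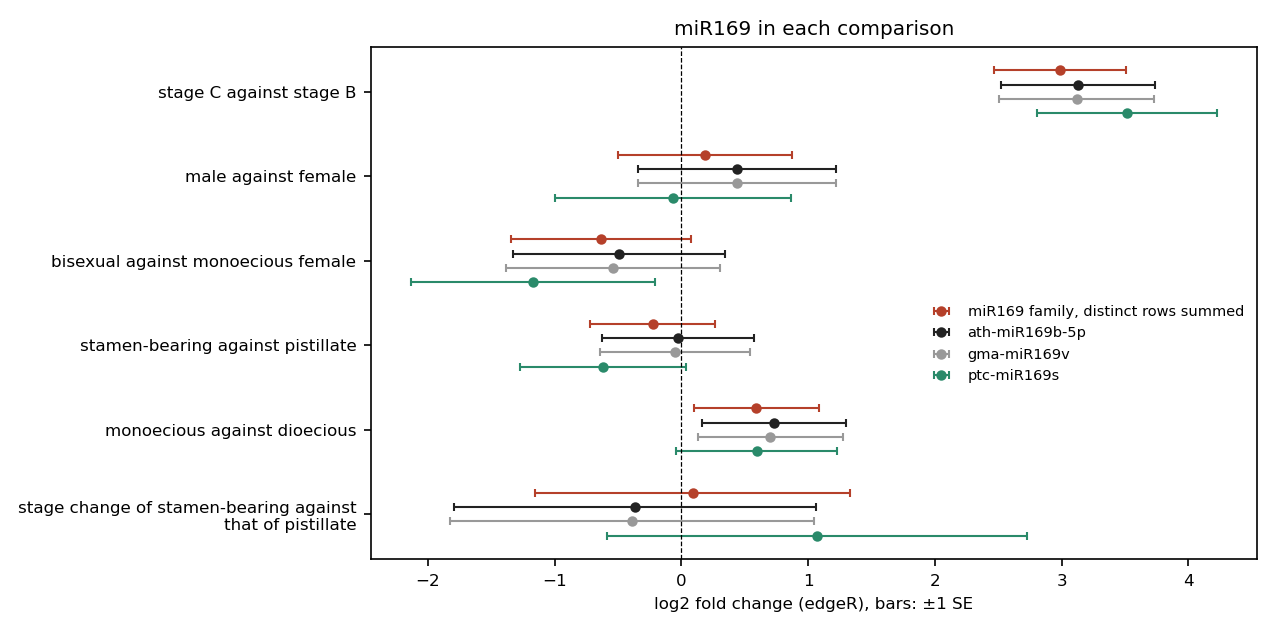
Log2 differences (x axis, edgeR, bars ±1 SE) of the summed miR169 family and its 3 tested rows in each comparison (y axis), the first-named group over the second. The stage differences lie between 2.99 and 3.51, while those of sex type lie between -1.17 and 0.73 and the bars of the interaction cross 0 for each item.

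The minor rows were then set against the main one at stage C, on few reads. Reads of ath-miR169a-5p, as a share of its own and those of ath-miR169b-5p, made up 22.7% in male (exact binomial 95% interval 7.82 to 45.4%), 5.88% in female (0.149 to 28.7%), 8.7% in bisexual (1.07 to 28%) and 24.3% in monoecious female buds (11.8 to 41.2%). The same share for gma-miR169u was 19% in male, 5.88% in female, 16% in bisexual and 17.6% in monoecious female buds. The intervals of either row overlap. In level, ath-miR169a-5p in monoecious female buds was 8.52 times that of female buds (1.18 to 374), from 9 against 1 read, and 0.213 times in bisexual as against monoecious female buds (0.0224 to 1.03), from 2 against 9. The first was the only one of 20 ratios between sex types at stage C, over 5 rows and 4 pairs, whose interval lay away from 1, and it sets strain T2 against C1. Of the 5 ratios that could be formed at stage B, 0 had an interval away from 1.

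Of the other 95 families and predicted miRNAs, those most like miR169 over the 8 libraries were novel_39 (Pearson r = 0.978 on log2 of CPM plus 1), novel_11 (0.961), miR168 (0.956), novel_100 (0.948) and miR171 (0.945), with the next at 0.941. Without the bisexual library of stage B their r was 0.945 to 0.98 and their ranks were 4 to 10, so other features were then more like miR169. All were higher in every stage C library than in any at stage B, and the share of the 95 features for which this holds was not counted. Each point of such a correlation is 1 library that all features share, and the libraries fall into 2 stages that differ for each of these features. novel_39 lay at 256 to 487 CPM at stage C and 10.1 to 32.5 CPM at stage B, with a log2 difference between stages of 3.5. For miR168, which targets AGO1, the levels were 726 to 891 CPM at stage C and 371 to 484 CPM at stage B. miR171, which targets GRAS regulators of meristems, lay at 5630 to 9160 CPM and 1640 to 3830 CPM at the same stages.

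**Figure D5:**
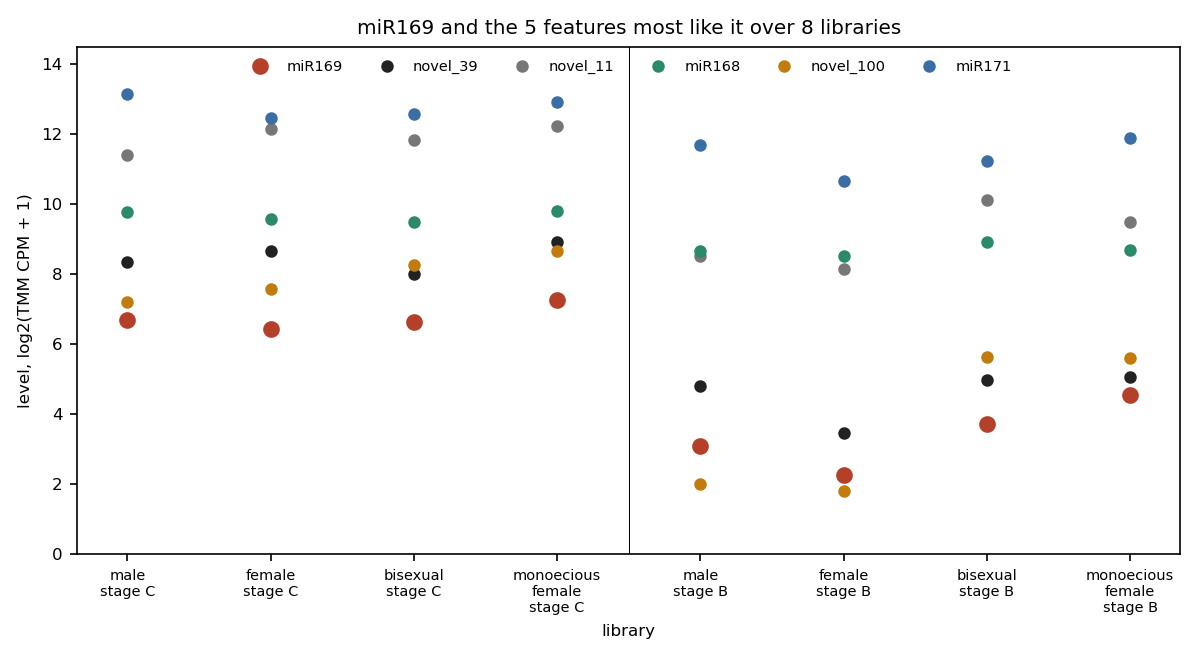
Levels (y axis, log2 of TMM-normalised CPM plus 1) of miR169 and the 5 features most like it, in the 4 libraries of stage C on the left and the 4 of stage B on the right (x axis). All 6 features are higher in each stage C library than in each stage B library, and miR169 is the lowest of them in every stage C library.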

How the data were processed

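Small RNA libraries from 8 bud samples (4 sex types, 2 stages, 1 library each) were analysed from 1 table. Its raw read counts were deposited by the authors. The deposited TPM values were made by the authors and equal each count over its column total, times 1e+06, within 4.29e-05, so only counts were used. Reads were processed with CASAVA 1.8 and Bowtie, per the submitters' processing notes. For genome build, miRBase release and mismatch limit, the sources used here give nothing.

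Rows (248) and a table of family sums with predicted miRNAs (96 features, rows of a family with identical counts kept once) entered the tests where 2 or more libraries had 10 or more reads. The test was that of edgeR 4.0.16 under R 4.3.3 (quasi-likelihood, TMM factors, Benjamini-Hochberg over all features, threshold 0.05). The model was additive in stage and sex type (3 residual degrees of freedom), or added stage by flower class (2). P-values measure the sex type by stage spread, which may be technical in part. Each standard error was taken as the absolute log2 difference over the square root of F. TMM factors computed on the 248 rows also entered the CPM levels, while each fit used factors of its own table. Exact conditional binomial 95% intervals were computed for ratios of libraries, with a floor of 3 reads. A floor of 3 reads equals 4.61 to 5.55 CPM at stage C and 3.77 to 18.4 CPM at stage B.

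The procedure was tested on simulated data. Simulated rows were drawn independently, with changes in random directions. The simulation thus did not cover rows that repeat each other's counts or a shift of many rows between stages, and nothing is read from it here. The members and lists were chosen with earlier results of these data known. All miR169 rows are accounted for. Named beside them were the 5 features with the highest Pearson correlation with the family, and the 4 most abundant families of the nutrient and of the floral list, beside others named after their values were seen. Alternatives were RLE factors, DESeq2 1.42.0, library totals alone, a minimum of 50 reads, no filter, other ways to join rows, and leaving out each library.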

Additional observations from a re-analysis of the deposited data

How the results depend on the processing

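The stage difference of the family kept its direction under all alternatives, with 2.86 to 4.17 on the log2 scale over other settings and 2.76 to 3.31 when 1 library at a time was left out. The family was taken up with this difference already known, so nothing is read from its stable direction. The 3 rows called between stages were 0 with a minimum of 50 reads, since no miR169 row reached it, and 0 to 3 without 1 library, where the share of all rows called ran between 0% and 47.1%. The sex type differences, none of them past the threshold, changed sign under some settings, and the cause was not tested. Male against female gave -0.151 to 0.835 without 1 library, with -0.151 without that of female buds at stage B. Stamen-bearing against pistillate gave -0.497 to 0.121 without 1 library, with 0.00271 without monoecious female buds of stage B and 0.121 without female buds of stage C, and 0.06 with the row with most reads. The interaction gave -0.71 to 0.711 without 1 library, with -0.71 and -0.66 without monoecious female buds of stage B and stage C. It was -0.335 with library totals alone, -0.0295 with all rows summed and -0.241 with the row with most reads. Bisexual against monoecious female (-1.23 to -0.219) and monoecious against dioecious (0.371 to 0.914) kept their direction without any 1 library. Stages were compared within sex types in every fit. A block on replicate number could not be added, as the labels give none. In the bisexual library of stage B, where 3 reads equal 18.4 CPM, depth limits the family.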
